A study of Mus musculus with 6 samples.

Results

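Transcript levels of the genes that carry newly made proteins into the endoplasmic reticulum (ER) and move them in coated vesicles between the ER and the Golgi were compared between PARP2 knockout and wild-type pancreas. The members were chosen by gene symbol alone: subunits of the signal recognition particle and its receptor, the Sec61 channel with Sec62 and Sec63, the translocon-associated protein complex (TRAP), signal peptidase, the COPII and COPI coats, the TMED family, and the cargo receptors Lman1, Lman2, Mcfd2 and Mia3 with the Sec22 SNAREs. The rule matched 63 of the 29721 genes in the count table, and all 63 passed the filter on low counts. It used no measured value, but it was set with earlier results of these data known.

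A protein bound for secretion starts with a signal peptide, which the signal recognition particle binds as it leaves the ribosome and delivers to the receptor on the ER membrane. The chain then passes through the Sec61 channel, signal peptidase removes the signal peptide, and COPII vesicles carry the folded cargo toward the Golgi while COPI vesicles return escaped ER proteins and receptors. Acinar cells, which make and secrete digestive enzymes, are among the most active secretory cells of the body and hold a dense ER.

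The study asked how PARP2, a nuclear enzyme that attaches ADP-ribose to proteins at damaged DNA, bears on the growth of pancreatic tumours. RNA from the pancreas of 6 mice aged 3 months was sequenced, 3 wild type (WT) for Parp2 and 3 PARP2 knockout (PARP2 KO), each library from a different animal. All 6 mice, controls included, carried Ela-myc, a Myc transgene under the elastase promoter that is active in acinar cells and gives pancreatic tumours, so no group had a pancreas free of the transgene. Neither the kind of knockout allele nor the part of the organ taken is given in the labels, and the extraction notes speak of tumours while the tissue label is pancreas.

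Libraries held 28105021 to 32055565 counts. Parp2 itself had 40.5, 36.5 and 37.5 CPM (counts scaled to library size and composition) in WT replicates 1, 2 and 3 and 14.4, 12.4 and 13.7 CPM in PARP2 KO replicates 1, 2 and 3, so its level followed the labels. The label pancreas was checked with 29 genes for digestive enzymes and other acinar secretory products: these took 28.8%, 30.5% and 23.6% of the counts in WT, 4.47% and 14.9% in PARP2 KO replicates 1 and 2, and 0.0189% in PARP2 KO replicate 3, where Amy2a5 and Cela3a had no count and the other 27 were near 0 beside WT. PARP2 KO replicate 3 therefore stands apart from the other libraries. The defining markers of the labelled tissue were near 0 in it, and whether the piece sequenced was pancreas was not tested, so for this library an effect of genotype and a difference in the tissue taken cannot be told apart. The counts of called members by role are given with and without this library. Some other counts, as of the order among the knockout libraries and of some cell markers, are given only with it. In bulk tissue, fewer cells of a type and less RNA per cell cannot be told apart.

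Of the 63 members, 44 were lower and 2 higher in PARP2 KO at an adjusted p under 0.05 in edgeR, and 17 were not called. Across all 17652 genes tested, 25.0% were lower and 28.0% higher. The median log2 fold change (PARP2 KO minus WT) was -0.62 over the members and 0.02 over all genes tested. Every PARP2 KO library lay below every WT library for 51 members, against 33.7% of all genes tested. For 2 members, Tmed8 and Sec24b, every PARP2 KO library lay above every WT library. With PARP2 KO replicates 1 and 2 alone set against WT, 51 members lay below and the same 2 above, against 35.8% of all genes tested below. For neither comparison was the share of all genes tested that lay above counted.

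Without PARP2 KO replicate 3, 40 members were lower and 1 higher, where 20.4% of all genes tested were lower and the share higher was not counted. Of the 44 members lower with all libraries, 38 were also lower in that fit. With library totals as the only scaling, 27 members were lower and 6 higher, beside 12.2% lower and 42.3% higher of all genes tested. That scaling moved the median log2 fold change of all genes to 0.42 and that of the members to -0.22. A change of scaling shifts all genes by nearly the same amount, so the distance of 0.63 between the medians could hardly move. The digestive enzyme level of each library was then added as a further term. With it, 30 members were lower and 1 higher, beside 14.0% of all genes tested lower and a share higher that was not counted. The enzyme level was lower in every PARP2 KO library than in every WT library, so the term shares variation with genotype. Of the original 44, 29 were among those 30. Neither of these settings was also run without PARP2 KO replicate 3. The loss was uneven over the roles. All 4 TRAP genes were lower in both settings, and signal peptidase had 4 of 5 lower with library totals and 5 of 5 with the enzyme term. The channel group went from 5 lower members to 2 and 3, the COPI coat from 7 to 4 and 4, the TMED family from 5 to 2 and 3, and the cargo receptors and SNAREs from 5 to 2 and 2. The signal recognition particle group went from 7 to 5 and 5 and the COPII coat from 6 to 4 and 4.

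**Figure D1:**
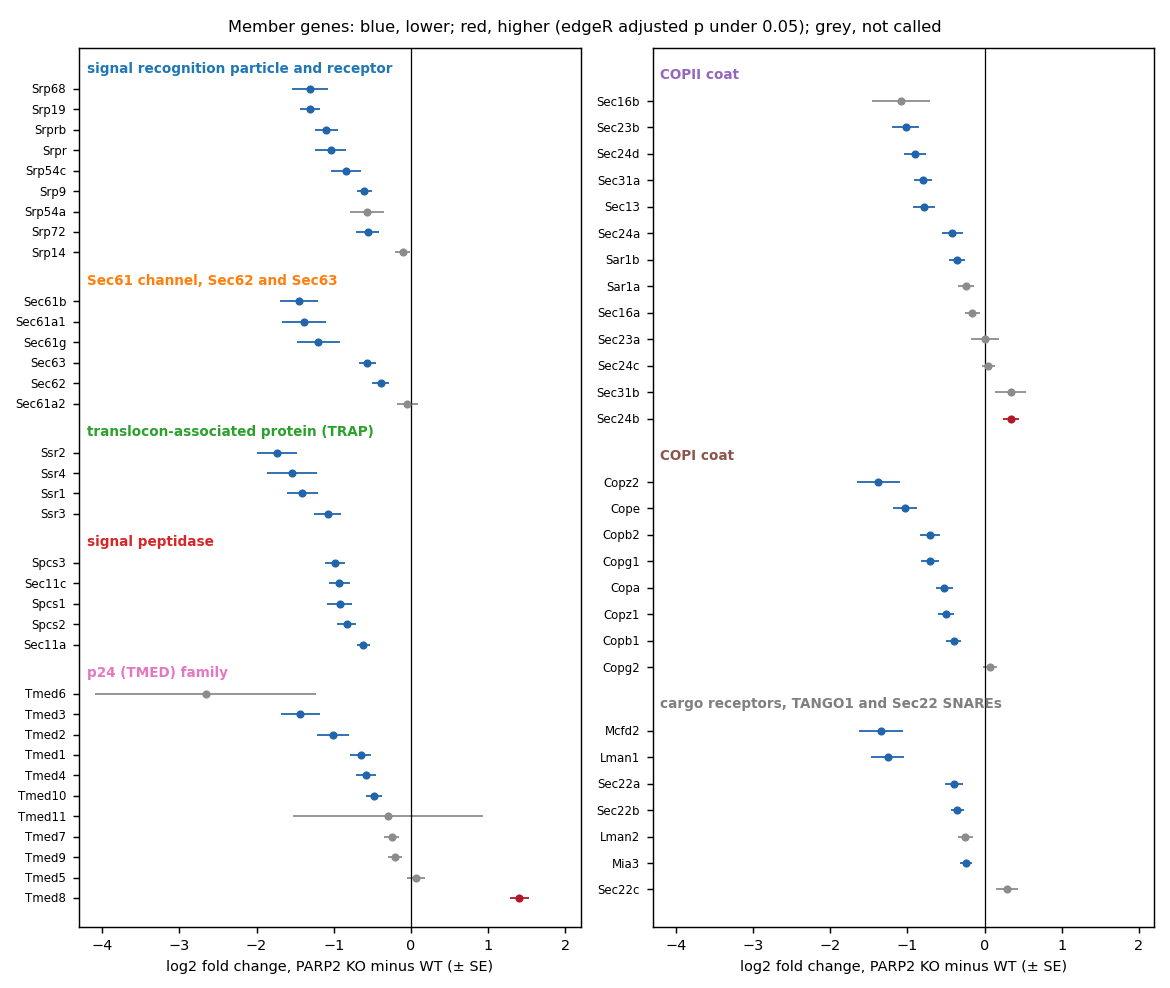
Log2 fold change of each of the 63 members, PARP2 KO minus WT, by role; points are edgeR estimates, bars are 1 SE, blue marks the 44 lower members, red the 2 higher ones and grey the 17 not called. The 4 TRAP genes lie at -1.08 or below, while the COPII coat runs from -1.09 to 0.34 and Tmed6 has the lowest estimate with the longest bar.

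The fall was of moderate size, and the 3 knockout libraries lay closer together than for the enzymes. Of the 44 lower members, 18 had a log2 fold change of -1 or below, 17 lay between -1 and -0.5 and 9 above -0.5. Of the 40 lower without PARP2 KO replicate 3, these numbers were 12, 21 and 7. Relative to the WT mean of each gene, their median level was 50.3% in PARP2 KO replicate 1, 65.5% in replicate 2 and 48.9% in replicate 3. The corresponding medians of the digestive enzyme genes were 12.1%, 45.7% and 0.0470%. In edgeR none of the 29 enzyme genes was called with all libraries, and 3 were lower without PARP2 KO replicate 3. In replicate 3 the lower members kept between 23.2% and 81.0% of their WT mean, and no digestive enzyme gene kept more than 0.988%. The call itself favours genes whose knockout libraries lie close together, which narrows this range. Tmed6, not called, kept 9.2%, 38.0% and 0.23% in PARP2 KO replicates 1, 2 and 3. Over all 63 members, called or not, the median log2 difference from the WT mean was -0.67, -0.48 and -0.77 in these libraries. For the enzymes it was -2.97, -1.07 and -10.71. The order of the lower members among the knockout libraries nonetheless followed the enzymes at the upper end. PARP2 KO replicate 2, the knockout library with the most enzyme counts, was the highest knockout library for 42 of the 44. Replicate 3 was the lowest for 34 of them and replicate 1 for 10. The same shares over all genes called lower were not counted, so this order may not be particular to the members. Summed over all 63 members, CPM came to 10630, 10450 and 9037 in WT and 5370, 6699 and 5089 in PARP2 KO.

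**Figure D2:**
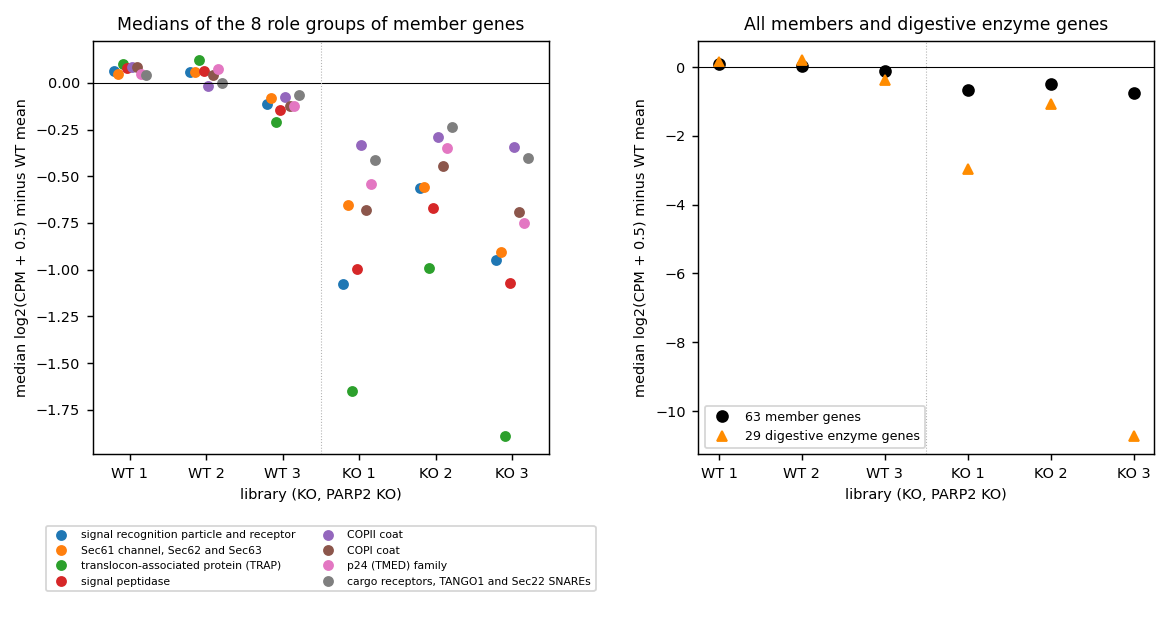
Median of log2(CPM + 0.5) minus the WT mean of each gene, per library, for the 8 role groups (left) and for all 63 members beside the 29 digestive enzyme genes (right). All 8 role medians are below 0 in each PARP2 KO library, and in PARP2 KO replicate 3 the members lie at -0.77 and the enzymes at -10.71.

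Markers of several other cell types differed between the genotypes too, where 25.0% of all genes tested were lower and 28.0% higher. The summed CPM of 10 B cell markers, all higher, ranged over 137 to 419 in WT and 1471 to 2156 in PARP2 KO. For 10 T cell markers, all higher, it was 58.2 to 173 against 439 to 1097, and for 13 fat cell markers, 12 of them higher, 997 to 2274 against 12270 to 16600. Islet hormone and granule genes, 5 of 12 lower, summed to 1532 to 3569 against 10.7 to 649. Without PARP2 KO replicate 3, 9 of these 12 were lower. Fibroblast markers (4 lower and 3 higher of 14) had 5400 to 6026 against 4013 to 5192. Macrophage markers (1 lower and 2 higher of 10) had 2349 to 2618 against 2664 to 3122. By median log2 fold change these 2 lists hardly moved, at 0.006 for the fibroblast and -0.008 for the macrophage markers. Without PARP2 KO replicate 3, 3 fibroblast markers were lower and 3 higher, while no macrophage marker was lower and 2 were higher. Plasma cells, which also secrete heavily, had 1155 to 1518 against 1219 to 1358 over 12 markers. This sum joins opposite changes. Mean CPM of Xbp1 went from 469 in WT to 248 in PARP2 KO and that of Txndc5 from 340 to 220, while Jchain went from 144 to 505. Of the 12 markers, 7 were higher, while Derl3, Txndc5, Xbp1 and Sdc1 were lower. The part of these cell types in the members' levels was not tested.

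Genes of the signal recognition particle and its receptor were lower for 7 of 9 members, and for 6 of 9 without PARP2 KO replicate 3, with a median log2 fold change of -0.84. Srp19, a protein that helps assemble the particle's RNA, had 82.3, 81.0 and 73.4 CPM in WT and 30.5, 37.5 and 27.6 CPM in PARP2 KO. Its groups lay far apart, and it fell by 1.31 on the log2 scale (SE 0.132, edgeR adjusted p = 0.00209). Srprb, the membrane-anchored subunit of the receptor, had 59.3, 58.1 and 53.2 CPM against 26.4, 31.7 and 21.7 CPM. All 3 knockout values lay below the lowest WT value, and Srprb fell by 1.10 (SE 0.149, edgeR adjusted p = 0.00309). The other receptor subunit, Srpr, had 251, 249 and 208 CPM against 102, 151 and 91.0 CPM and fell by 1.04 (SE 0.206, edgeR adjusted p = 0.00815).

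Srp68, which pairs with Srp72 on the RNA of the particle, had 208, 228 and 194 CPM in WT and 74.1, 117 and 63.2 CPM in PARP2 KO and fell by 1.31 (SE 0.236, edgeR adjusted p = 0.00629). Its groups did not overlap, and replicate 2 was again the highest of the knockout libraries. Srp72 fell by 0.56 (edgeR adjusted p = 0.0188), a call lost when PARP2 KO replicate 1 or 3 or WT replicate 1 or 2 was left out. Srp9 and Srp14 form the pair that slows translation while the particle is bound. Srp9 fell by 0.60 (edgeR adjusted p = 0.00459), whereas Srp14 had 59.8, 59.9 and 53.2 CPM against 49.0, 54.3 and 56.8 CPM. The Srp14 groups overlapped, at a log2 fold change of -0.11 (edgeR adjusted p = 0.346). Srp54 binds the signal peptide itself and has near-identical copies in the mouse: 93.9% of the 50-base stretches of Srp54c and 70.5% of those of Srp54a occur in another gene. Srp54c fell by 0.84 and Srp54a, at under 3 CPM in every library, had a log2 fold change of -0.57 without a call, and how reads were divided between the copies is uncertain.

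In the channel group, 5 of 6 members were lower, and 4 of 6 without PARP2 KO replicate 3, with a median log2 fold change of -0.88. With library totals only 2 of 6 were lower, and with the enzyme level as a term 3 of 6. Sec61a1 (chr6:88503579-88518905 in GRCm38), the pore-forming subunit, had 690, 688 and 541 CPM in WT and 212, 350 and 173 CPM in PARP2 KO. It fell by 1.39 (SE 0.281, edgeR adjusted p = 0.00895), with every knockout library below every WT library. Its small partner Sec61b had 88.0, 93.1 and 68.1 CPM against 25.7, 41.2 and 24.3 CPM and fell by 1.45 (SE 0.240, edgeR adjusted p = 0.00503). The third subunit, Sec61g, was counted at only 1.63 to 1.86 CPM in WT and 0.540 to 0.884 CPM in PARP2 KO and fell by 1.20 (edgeR adjusted p = 0.0134). Of the 50-base stretches, 17.4% in Sec61b and 14.8% in Sec61g are shared with other genes, which makes their levels uncertain. For Srprb the share is 19.9%, with 20.7% of its exon bases under Gm20425 on the same strand, for Srpr 17.7% and for Tmed2 22.0%, and the same caution holds for these 3 genes.

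Sec61a2, a second gene for the pore subunit (chr2:5870987-5895432), had 18.6, 17.7 and 20.6 CPM in WT and 19.6, 15.3 and 20.1 CPM in PARP2 KO. These groups overlapped, and the log2 fold change was -0.05 (SE 0.137, edgeR adjusted p = 0.781). Per kilobase of exon, Sec61a1 went from 95.0 to 36.4 CPM and Sec61a2 from 4.14 to 4.01 CPM, so Sec61a1 was the more abundant in both genotypes. Sec62 and Sec63, which help proteins enter after translation and recruit the chaperone BiP, were both lower. Sec62 fell by 0.39 (edgeR adjusted p = 0.0256) and Sec63 fell by 0.57 (edgeR adjusted p = 0.00767). The Sec62 call ended when any library other than PARP2 KO replicate 2 was left out, while Sec63 kept its call in all 6 such fits.

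All 4 TRAP genes were lower, also without PARP2 KO replicate 3. TRAP sits beside the channel and helps certain signal peptides to open it. Its median log2 fold change of -1.47 was the lowest of the 8 role groups, and its library medians were -1.65, -0.99 and -1.89 in PARP2 KO replicates 1, 2 and 3. Ssr2 (chr3:88575876-88588419) had 341, 369 and 276 CPM in WT and 82.8, 138 and 76.3 CPM in PARP2 KO and fell by 1.73 (SE 0.259, edgeR adjusted p = 0.00386), the largest fall among the called members. Of its exon bases, 12.8% lie under Gm10704 on the other strand. Ssr4 had 282, 310 and 211 CPM against 75.3, 138 and 64.1 CPM and fell by 1.54 (SE 0.325, edgeR adjusted p = 0.0109).

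Ssr1 had 586, 573 and 483 CPM against 194, 263 and 163 CPM and fell by 1.41 (SE 0.199, edgeR adjusted p = 0.00333). Ssr3 had 703, 644 and 559 CPM against 282, 370 and 249 CPM and fell by 1.08 (SE 0.180, edgeR adjusted p = 0.00489). In all 4 genes WT replicate 3 was the lowest WT library, PARP2 KO replicate 2 the highest knockout library and replicate 3 the lowest, and the genotypes did not overlap. Per kilobase, Ssr2 stood at 176 CPM in WT and 53.2 CPM in PARP2 KO, Ssr3 at 152 and 72.0 CPM.

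**Figure D3:**
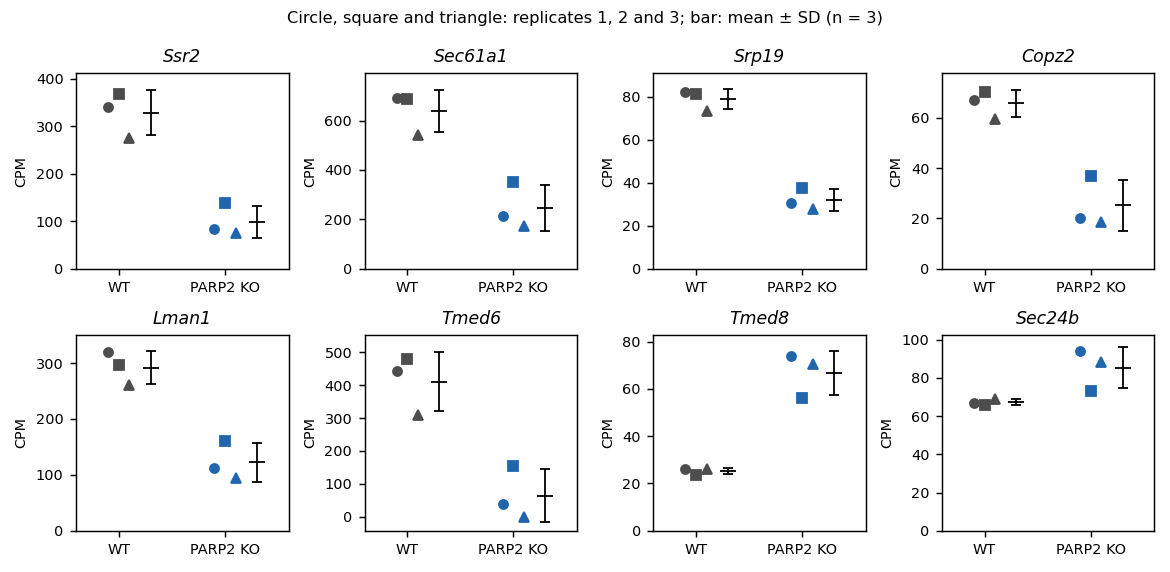
CPM of 8 members in each library, with circle, square and triangle for replicates 1, 2 and 3 and a bar for the mean ± SD (n = 3) of each genotype; every axis includes 0. Ssr2, Sec61a1, Srp19, Copz2 and Lman1 are lower in all 3 PARP2 KO libraries, Tmed6 ranges from 0.951 to 156 CPM among them, and Tmed8 and Sec24b are higher.

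Signal peptidase was likewise lower in full, with 5 of 5 members called with all libraries and also without PARP2 KO replicate 3, and a median log2 fold change of -0.92. Spcs3, an accessory subunit needed for cleavage, had 292, 288 and 250 CPM in WT and 125, 163 and 131 CPM in PARP2 KO and fell by 0.99 (SE 0.134, edgeR adjusted p = 0.0031). Sec11a and Sec11c are alternative catalytic subunits. Sec11a had 79.0, 79.3 and 74.8 CPM against 47.1, 53.9 and 51.3 CPM and fell by 0.62 (SE 0.0817, edgeR adjusted p = 0.003). Sec11c had 204, 209 and 166 CPM against 99.4, 115 and 89.6 CPM and fell by 0.93 (SE 0.137, edgeR adjusted p = 0.00363). Neither gene's groups overlapped. The accessory subunits Spcs2 and Spcs1 were lower too: Spcs2 fell by 0.83 (edgeR adjusted p = 0.00372) and Spcs1 fell by 0.92 (edgeR adjusted p = 0.00602).

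The COPII coat was mixed: 6 of 13 members were lower, 1 was higher and 6 were not called, with a median log2 fold change of -0.36. Without PARP2 KO replicate 3, 5 were lower and none of the 13 higher. COPII assembles when the small GTPase Sar1 binds the membrane and recruits an inner layer of Sec23 and Sec24, which holds the cargo, and an outer cage of Sec13 and Sec31. Sec31a, the widely expressed cage gene, had 281, 262 and 253 CPM in WT and 143, 174 and 140 CPM in PARP2 KO and fell by 0.80 (SE 0.115, edgeR adjusted p = 0.00345). Its cage partner Sec13 had 139, 138 and 118 CPM against 68.9, 92.4 and 68.1 CPM and fell by 0.78 (SE 0.146, edgeR adjusted p = 0.00672). The groups of both cage genes were well apart. Sec31b had 4.42, 4.68 and 6.48 CPM against 6.87, 6.18 and 6.66 CPM, with overlapping groups and no call (log2 fold change 0.34, edgeR adjusted p = 0.193).

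The inner layer is built from paralogues with different values here. Sec23b had 146, 134 and 112 CPM in WT and 59.8, 79.1 and 54.2 CPM in PARP2 KO and fell by 1.02 (SE 0.172, edgeR adjusted p = 0.00506). Sec23a had 40.4, 34.7 and 56.0 CPM against 43.4, 41.6 and 46.6 CPM, and its groups overlapped, at 0.00 on the log2 scale (SE 0.180, edgeR adjusted p = 0.987). Of the 4 Sec24 cargo adaptors, Sec24d had 121, 109 and 102 CPM against 56.1, 71.1 and 50.6 CPM and fell by 0.90 (SE 0.144, edgeR adjusted p = 0.00448), with no overlap. Sec24a fell by 0.42 (edgeR adjusted p = 0.0401), a call that ended without PARP2 KO replicate 2 or 3 or WT replicate 1 or 3. Sec24c had 171, 170 and 161 CPM against 173, 161 and 183 CPM, and its groups overlapped at a log2 fold change of 0.05 (edgeR adjusted p = 0.666).

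Sec24b was 1 of the 2 members that rose. It had 66.8, 66.0 and 69.1 CPM in WT and 94.0, 73.3 and 88.6 CPM in PARP2 KO, a rise of 0.34 (SE 0.107, edgeR adjusted p = 0.036). The groups did not overlap, but the call ended when any library other than PARP2 KO replicate 2 was left out, with sex as a term (edgeR adjusted p = 0.0593) and with the enzyme level as a term (edgeR adjusted p = 0.206). Of the GTPase genes, Sar1b had 52.6, 47.8 and 41.5 CPM against 35.2, 38.5 and 37.0 CPM and fell by 0.36 (edgeR adjusted p = 0.0311). That call ended without PARP2 KO replicate 1 or 3 or WT replicate 1 or 2. Sar1a had 209, 199 and 196 CPM against 160, 190 and 161 CPM and was not called (log2 fold change -0.24, edgeR adjusted p = 0.0799), although its groups did not overlap.

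Sec16 proteins mark the ER exit sites where COPII forms. Sec16b had 29.8, 24.3 and 23.1 CPM in WT and 13.0, 17.4 and 6.09 CPM in PARP2 KO. The groups did not overlap, and at -1.09 on the log2 scale (SE 0.372) it narrowly missed the threshold (edgeR adjusted p = 0.0501). Leaving out PARP2 KO replicate 2 or 3 brought it past the threshold, with adjusted p of 0.0192 and 0.0241, as did the DESeq2 Wald test (adjusted p = 0.00672). Sec16a had 183, 165 and 148 CPM against 150, 146 and 148 CPM, with overlapping groups and a log2 fold change of -0.16 (edgeR adjusted p = 0.216).

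The COPI coat was lower for 7 of 8 members, with and without PARP2 KO replicate 3, but for 4 of 8 with library totals only or with the enzyme level as a term. Its median log2 fold change was -0.61. Cope, the epsilon subunit of the outer layer, had 165, 168 and 136 CPM in WT and 68.4, 92.2 and 68.7 CPM in PARP2 KO and fell by 1.03 (SE 0.154, edgeR adjusted p = 0.00368). Copz2, a second gene for the zeta subunit, had 67.1, 70.3 and 59.6 CPM against 20.4, 36.9 and 18.6 CPM and fell by 1.38 (SE 0.275, edgeR adjusted p = 0.0089), the largest fall in the coat. Both genes had clearly separate groups. Its paralogue Copz1 had 155, 150 and 133 CPM against 95.7, 113 and 102 CPM and fell by 0.50 (SE 0.101, edgeR adjusted p = 0.00876).

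The gamma subunit also has a pair of genes. Copg1 had 274, 268 and 244 CPM in WT and 154, 184 and 144 CPM in PARP2 KO and fell by 0.71 (SE 0.118, edgeR adjusted p = 0.00492). Copg2 had 55.8, 63.0 and 55.7 CPM against 60.7, 64.3 and 57.8 CPM, and its groups overlapped, at 0.07 on the log2 scale (SE 0.0875, edgeR adjusted p = 0.536). Of the exon bases of Copg2, 17.8% overlap Mest on the other strand. Copb2, in the outer layer, had 294, 278 and 246 CPM against 151, 194 and 156 CPM and fell by 0.71 (SE 0.133, edgeR adjusted p = 0.0068). Copb1, in the inner layer, had 212, 193 and 185 CPM against 145, 163 and 139 CPM and fell by 0.40 (edgeR adjusted p = 0.0168), a call that ended without PARP2 KO replicate 1 or WT replicate 1. Copa, the largest subunit, fell by 0.52 (edgeR adjusted p = 0.00948).

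The TMED or p24 proteins are small membrane proteins that cycle between ER and Golgi and help to sort cargo. Of 11 members 5 were lower, 1 higher and 5 not called, and the median log2 fold change was -0.48. Without PARP2 KO replicate 3, 6 were lower, Tmed6 being added, and without replicate 1, 3 were lower. Tmed3 had 190, 208 and 165 CPM in WT and 60.5, 96.8 and 50.6 CPM in PARP2 KO and fell by 1.44 (SE 0.255, edgeR adjusted p = 0.00615). Tmed2 had 57.9, 55.5 and 48.9 CPM against 24.1, 35.3 and 21.1 CPM and fell by 1.01 (SE 0.203, edgeR adjusted p = 0.0086). Both had groups that lay apart. Tmed10 fell by 0.48 (edgeR adjusted p = 0.00969) and Tmed1 fell by 0.65 (edgeR adjusted p = 0.0108). The Tmed1 call, and that of Tmed4 (which fell by 0.58, edgeR adjusted p = 0.0123), ended without PARP2 KO replicate 1.

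Tmed8 (chr12:87166237-87200454) went the other way. It had 26.0, 23.6 and 26.0 CPM in WT and 73.9, 56.1 and 70.3 CPM in PARP2 KO. Every knockout library was above every WT library, with the replicate richest in enzyme counts the lowest of the 3, and Tmed8 rose by 1.41 (SE 0.125, edgeR adjusted p = 0.00201). It was higher in all 6 fits that left out a library (edgeR adjusted p 0.000875 to 0.0116). With the enzyme level as a term the rise was 1.30 (edgeR adjusted p = 0.00919), and no exon of another gene overlaps it.

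Tmed6 (chr8:107061476-107065644), singled out after its values were seen, followed the enzymes more than the other members. It had 443, 478 and 310 CPM in WT and 37.8, 156 and 0.951 CPM in PARP2 KO. No groups overlapped, but the knockout libraries spread so widely that the log2 fold change of -2.66 had an SE of 1.43 and was not called (edgeR adjusted p = 0.163). The Tmed6 log2 fold change without PARP2 KO replicate 3 was -2.06 (edgeR adjusted p = 0.046). At 471 CPM per kilobase in WT, Tmed6 had the highest level per length of the 63 members, and in PARP2 KO 74.5.

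Cargo receptors and membrane fusion genes were lower for 5 of 7 members, but for 3 of 7 without PARP2 KO replicate 3 or WT replicate 1 or 2 and for 1 of 7 without PARP2 KO replicate 1, with a median log2 fold change of -0.35. Lman1 and Mcfd2 form the receptor that takes certain glycoproteins out of the ER. Lman1 had 319, 296 and 260 CPM in WT and 112, 161 and 93.7 CPM in PARP2 KO and fell by 1.26 (SE 0.213, edgeR adjusted p = 0.00521). Mcfd2 had 275, 277 and 254 CPM against 92.0, 155 and 71.0 CPM and fell by 1.34 (SE 0.288, edgeR adjusted p = 0.0112). The groups of both were far apart, yet the Mcfd2 call ended without PARP2 KO replicate 1 (edgeR adjusted p = 0.0524).

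Lman2, a related lectin, had 252, 242 and 241 CPM in WT and 184, 222 and 212 CPM in PARP2 KO and was not called (log2 fold change -0.25, edgeR adjusted p = 0.072). Mia3, which loads bulky cargo such as collagen at exit sites, fell by 0.25 (edgeR adjusted p = 0.0389), a call that ended when any library other than PARP2 KO replicate 2 was left out. The SNARE gene Sec22b fell by 0.35 (edgeR adjusted p = 0.0139), lost without PARP2 KO replicate 1. Its relative Sec22a fell by 0.40 (edgeR adjusted p = 0.0288), lost without PARP2 KO replicate 1 or 3 or WT replicate 1 or 2. Sec22c was not called (log2 fold change 0.29, edgeR adjusted p = 0.13). Over all members, 33 of the 44 lower calls held in each of the 6 fits that left out a library.

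Pairs of related genes were next compared as ratios within each library, which library scaling barely touches. Not every pair is a choice of alternatives for 1 place in a complex. Copb1 and Copb2 are different subunits, in the inner and outer layers of the same coat, and Lman1 and Lman2 are related lectins. Of 12 pairs, 11 had ratios that did not overlap between genotypes, 5 lower and 6 higher in PARP2 KO. Without PARP2 KO replicate 3, 11 did not overlap. How often ratios of other gene pairs fail to overlap was not counted, so these numbers are not particular to paralogues. Each of the 11 gave an exact two-sided permutation p of 0.1, the smallest that 3 against 3 allows (0.109 after Benjamini-Hochberg adjustment over the 12 pairs), so no pair could pass 0.05. The log2 ratio of Sec61a1 over Sec61a2 was 5.03 ± 0.31 in WT and 3.65 ± 0.73 in PARP2 KO (SD, n = 3 each). That of Copg1 over Copg2 was 2.16 ± 0.11 against 1.39 ± 0.11, and that of Lman1 over Lman2 0.25 ± 0.12 against -0.78 ± 0.36. Per kilobase of exon, Lman1 had 33.1 CPM and Lman2 30.9 CPM in WT, and 13.9 and 26.0 CPM in PARP2 KO.

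The ratio of Sec23a over Sec23b rose from -1.59 ± 0.52 to -0.53 ± 0.36, that of Sec24c over Sec24d from 0.60 ± 0.09 to 1.55 ± 0.34 and that of Copz1 over Copz2 from 1.15 ± 0.05 to 2.07 ± 0.42. Sec16a over Sec16b was 1.01 higher and Sec31a over Sec31b 1.13 lower, and Sec24a over Sec24b 0.75 lower. Sec11a over Sec11c and Copb1 over Copb2 were each 0.31 higher, though all 4 genes were lower. Sar1a over Sar1b was the pair whose groups overlapped (0.10 higher, exact permutation p = 0.3). In 5 pairs 1 gene fell while its paralogue overlapped between genotypes: Sec61a1 beside Sec61a2, Sec23b beside Sec23a, Sec24d beside Sec24c, Sec31a beside Sec31b and Copg1 beside Copg2.

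**Figure D4:**
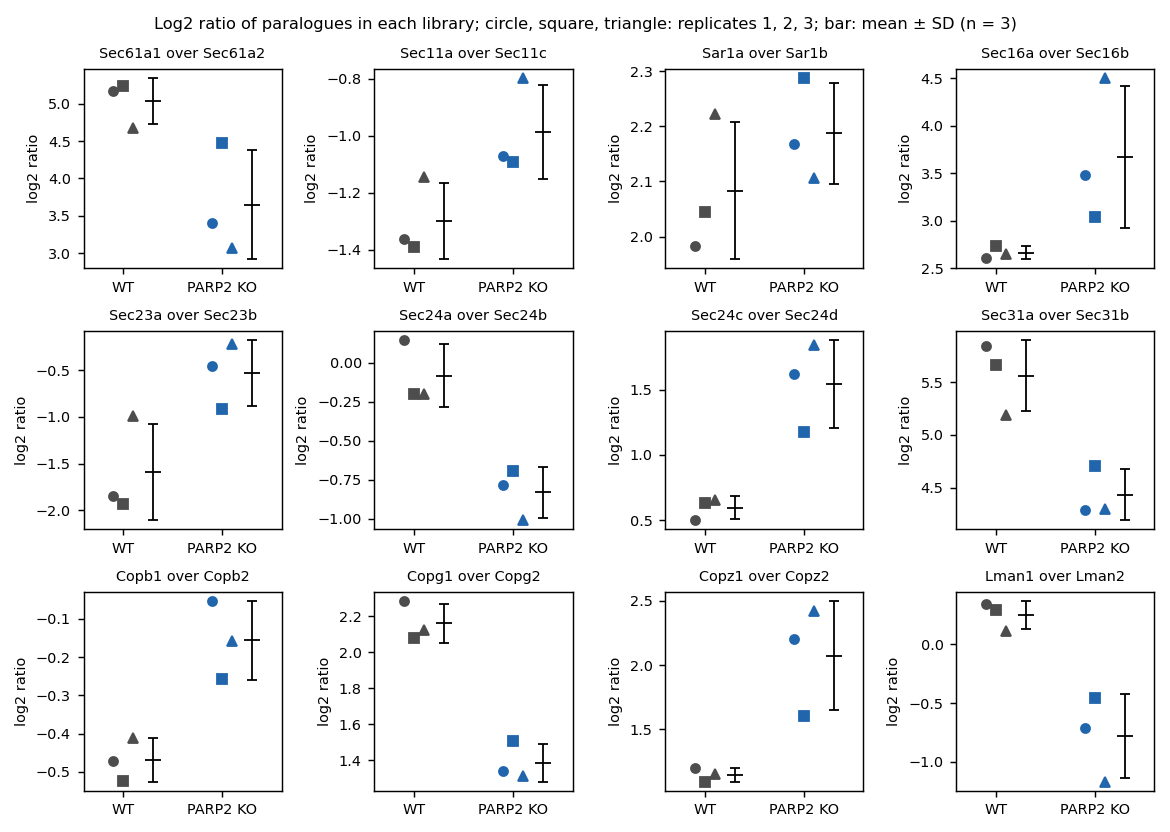
Log2 ratio of the 2 genes of each pair in each library, from CPM + 0.5. Circle, square and triangle mark replicates 1, 2 and 3, and a bar the mean ± SD (n = 3). Axes differ between panels and need not include 0. In 11 of the 12 panels the genotypes do not overlap, the exception being Sar1a over Sar1b.

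The genes with the higher level in WT tended to have the lower fold change. Across the 63 members, Spearman's rho between the WT level in CPM per kilobase and the log2 fold change was -0.538, and across 14944 protein-coding genes it was -0.247. These are descriptions across genes of the same 6 libraries, both quantities share the WT values, and genes are not independent replicates.

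Genes that work beside the members were examined in lists of 74, of which 71 were tested: 46 were lower and 6 higher. Without PARP2 KO replicate 1 the lower ones numbered 30, and without replicate 3, 37. Among COPII and COPI regulators, tethers and recycling receptors, 24 of 36 were lower and 2 higher, beside the 25.0% and 28.0% of all genes tested. Without PARP2 KO replicate 1, 16 were lower and without replicate 3, 19, and 15 were lower with library totals only or with the enzyme level as a term. The shares of all genes tested lower were 20.4% without replicate 3, 12.2% with library totals only and 14.0% with the enzyme term. Cnih1, a cargo receptor of the cornichon family, fell by 0.74 (edgeR adjusted p = 0.00228) and Kdelr2, which returns ER chaperones from the Golgi, fell by 1.19 (edgeR adjusted p = 0.00259). Arfgap1, which triggers GTP hydrolysis on COPI vesicles, fell by 0.74 (edgeR adjusted p = 0.0032), and Ergic1, a cycling membrane protein of the ER-Golgi intermediate compartment, fell by 1.11 (edgeR adjusted p = 0.00351). Lman2l, a relative of Lman2, rose by 0.42 (edgeR adjusted p = 0.0326) and the Golgi SNARE gene Gosr1 by 0.26 (edgeR adjusted p = 0.0384). Both calls ended without PARP2 KO replicate 1 or 3 or WT replicate 1 or 2, and that of Gosr1 also without WT replicate 3 and in DESeq2 (adjusted p = 0.0553). Arcn1, the delta subunit of COPI, whose symbol the rule does not match, fell by 0.73 (edgeR adjusted p = 0.00802) and was singled out after its values were seen.

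In a list of other genes for entry into the ER, 17 of 27 were lower and 4 higher, beside 25.0% and 28.0% of all genes tested. Without PARP2 KO replicate 3, 16 were lower and 3 higher, and without any one WT library 2 were higher. The list mixes other routes into the membrane with genes that work beside the channel or with BiP, such as Tram1 and Sil1. Its counts therefore do not describe the other routes alone. With library totals only 6 were lower and 8 higher, beside 12.2% and 42.3% of all genes tested. With the enzyme level as a term 8 were lower and 2 higher, beside 14.0% of all genes tested lower. Wrb, a receptor for tail-anchored proteins, fell by 0.85 (edgeR adjusted p = 0.00305) and Tram1, a membrane protein beside the channel, fell by 1.02 (edgeR adjusted p = 0.00401). Sil1, the nucleotide exchange factor of BiP, fell by 0.97 (edgeR adjusted p = 0.00554) and Tmem208, of a signal recognition particle-independent route, fell by 0.67 (edgeR adjusted p = 0.00621). The genes that rose included 2 subunits of the ER membrane protein complex, Emc2 by 0.49 (edgeR adjusted p = 0.00438) and Emc9 by 0.62 (edgeR adjusted p = 0.00979). The other two were Tram2, by 0.47 (edgeR adjusted p = 0.02), and Bcap31, by 0.33 (edgeR adjusted p = 0.0417). Both of these calls ended without any one WT library, that of Tram2 also without PARP2 KO replicate 1 and that of Bcap31 without PARP2 KO replicate 3. With library totals only the Tmem208 call ended (edgeR adjusted p = 0.0706).

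Of 8 genes for factors known to act on secretory pathway genes, 5 were lower, beside 25.0% of all genes tested. Without PARP2 KO replicate 1 or 3 or WT replicate 1 or 2, 2 were lower, and without WT replicate 3, 3. With library totals only 2 were lower, and with the enzyme level as a term 1. The shares of all genes tested were 20.4% without PARP2 KO replicate 3, 12.2% with library totals and 14.0% with the enzyme term. Without that replicate and with the enzyme term, the counts lay near these shares. Creb3l1, a membrane-bound transcription factor of secretory cells, had 79.2, 73.0 and 53.4 CPM in WT and 11.2, 23.1 and 9.87 CPM in PARP2 KO and fell by 2.22 (SE 0.370, edgeR adjusted p = 0.00548). Xbp1, which drives ER expansion once its RNA is spliced by the sensor encoded by Ern1, had 485, 516 and 405 CPM against 206, 317 and 220 CPM and fell by 0.92 (SE 0.196, edgeR adjusted p = 0.0103). Neither gene's groups overlapped. Gene counts do not separate the spliced from the unspliced form. Creb3 fell by 0.31 (edgeR adjusted p = 0.0369) and Ern1 fell by 0.39 (edgeR adjusted p = 0.0421). Both calls ended without PARP2 KO replicate 1 or 3 or WT replicate 1 or 2, and that of Creb3 also without WT replicate 3. With sex as a term the edgeR adjusted p was 0.0784 for Creb3 and 0.0954 for Ern1, and with the enzyme level 0.229 and 0.278.

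Promoters of the members were searched for the DNA elements that factors of this kind are known to bind, in RefSeq windows of 250 bases before to 50 bases after each gene's start (GRCm38.p6, both strands). Of the 63 members, 53 had an entry. The core of the unfolded protein response element, TGACGTGG, which XBP1 and ATF6 can bind, was found in 5 of them (9.43%) and in 0.714% of the 27025 genes with a window. Over the 17492 protein-coding genes with a window the share was 0.823%. Of the 5 members with the match, 3 were lower, beside 44 of all 63 members, and 4 were lower without PARP2 KO replicate 3, Sec16b being added. No test linked the match to the fall. Stretches around the match are shown for those 3 genes, so that the element and its place can be seen. Each is written 5′ to 3′ along the gene, with the match in capitals, reading CCACGTCA where it lies on the opposite strand.

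Sec24d: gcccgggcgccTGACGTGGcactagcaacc
Copb2: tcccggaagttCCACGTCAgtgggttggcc
Copb1: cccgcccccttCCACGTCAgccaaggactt

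The Sec24d stretch is chr3:123267459-123267488 on the plus strand, that of Copb2 chr9:98563713-98563742 on the plus strand and that of Copb1 chr7:114254690-114254719 on the minus strand. All 3 matches lie within exons annotated in GENCODE vM21, close to the start of the gene. Their log2 fold changes were -0.90 for Sec24d, -0.71 for Copb2 and -0.40 for Copb1. The other two members with a match were not called: Sec16b, whose groups did not overlap, and Sec23a, whose groups did. Among the 124 tested genes with a match anywhere in the table, 37.9% were lower, beside 26.8% of the 12489 tested genes with a window. The ER stress element, CCAAT and CCACG with a gap of 9 bases, occurred in no member's window and in 0.137% of genes, and its second form, ATTGG and CCACG with 1 base between, in no member's window and in 0.0444% of genes. CACGTG, the E-box that Myc can bind, occurred in 7 of 53 members (13.2%), in 8.09% of genes and in 8.91% of protein-coding genes. Those 7 were Mcfd2, Sar1a, Sec22c, Sec62, Ssr1, Tmed10 and Tmed8, of which 4 were lower (3 without PARP2 KO replicate 3) and 1, Tmed8, higher. Among all 1373 tested genes with this match, 29.8% were lower. A match describes the letters of a window and says nothing about binding.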

How the data were processed

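The authors deposited whole-number read counts per gene and a table of log2 values for the same 6 libraries. The genome was GRCm38 (mm10), and the tools named were STAR 2.5.3a, DESeq2 1.28.1 and FastQC 0.11.5, per the submitters' processing notes. Which program counted the reads, with which strand setting and annotation, is not given in the sources used here. The deposited log2 values differed by at most 5.15e-14 from log2(count / DESeq2 size factor + 1). Counts were tested with edgeR 4.0.16 (quasi-likelihood, robust, TMM, default filter) in R 4.3.3 with genotype alone, over 17652 genes with Benjamini-Hochberg adjustment and a threshold of 0.05. SE was obtained by dividing the estimated log2 fold change by √F. Alternatives were other scalings, count filters, tests (DESeq2 1.42.0, limma 3.58.1), sex or enzyme level as a term, and fits with 5 of the 6 libraries. Limma on the deposited log2 values was chosen after seeing the data. Exon overlap, length and shared 50-base stretches came from GENCODE vM21.

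The members and all lists were chosen with earlier results of these data known. Genes described in full were, per role, up to 4 called members of smallest p and members called against the direction of their role. The genes of the 12 pairs were also described in full. Per neighbouring list, up to 4 called genes of smallest p in each direction were described. On simulated counts of 17652 genes, edgeR recovered 33 of the 99 genes given a 2-fold change and 75 of the 99 given a 4-fold change, and 8 unchanged genes were called. No libraries of 1 genotype agreed within sampling noise (chi-square per degree of freedom 29.1 to 461).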

Additional observations from a re-analysis of the deposited data

How the results depend on the processing

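The number of lower members was 44 in the main analysis, 27 with library totals only, and between 34 and 47 when each library was left out in turn. The number of higher members was 2, moving to 6 with library totals only, 1 with enzyme level as a term, 1 with sex as a term, and 1 to 3 when each library was left out. The median log2 fold change of the members was -0.22 with library totals only and -0.75 to -0.55 when each library was left out. With library totals only, 5 lower members took a log2 fold change above 0, none of them called: Sar1b 0.0475, Sec62 0.0004, Sec22b 0.0429, Sec22a 0.0012 and Mia3 0.16. That scaling shifts all genes upward by its construction, with a median of 0.42. Neighbouring genes went from 46 lower and 6 higher to 24 and 2 with enzyme level as a term and to 23 and 15 with library totals only. Higher ones numbered 3 with sex as a term. Leaving out each library gave 30 to 45 lower and 2 to 6 higher. The DESeq2 Wald test, limma-voom and limma on the deposited log2 values each gave 45 lower and 2 higher members.

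Sex read from transcripts (2 males and 1 female in WT, 1 male and 2 females in PARP2 KO) as a term left 37 lower members. The share of all genes tested that was lower in that fit was not counted. The calls rest on 3 libraries per genotype. The simulated data had far fewer changed genes than were called here, so the share of 2-fold changes missed was not measured. Levels under about 3 CPM, as for Sec61g, Srp54a and Tmed11, have the largest counting error. No paired analysis was possible because the labels give the samples no replicate numbers shared between genotypes.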
